A study of Drosophila melanogaster with 16 samples.

Results

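Pericentromeric heterochromatin is described here through the peaks of 2 histone marks in heads of aging Drosophila melanogaster. Members were taken by position alone on the BDGP6 build: peaks starting from 22000000 up on 2L, from 23000000 up on 3L, below 4200000 on 3R and from 22000000 up on X. The rule took 801 of the 137860 peaks in the 4 deposited lists: 227 of 43871 for H3K4me1 at day 10, 260 of 41851 for H3K4me1 at day 50, 157 of 26699 for H3K27ac at day 10 and 157 of 25439 for H3K27ac at day 50. The rest of the same 4 arms, with 108450 peaks, served for comparison. All flies were males of the wild-type strain w1118, a white-eyed laboratory strain, with heads taken at day 10 or day 50 of adult life. Chromatin from many pooled heads per replicate was precipitated with an antibody against either mark, and for each mark and age there were 2 precipitated (ChIP) and 2 input samples, 16 in all. Both ChIP replicates had been joined before peaks were called, so there was 1 list per mark and age. A replicate error and a test of age were therefore out of reach, read depth was unknown, and every interval below covers counting error of peaks or genes only. A whole head mixes neurons, glia, photoreceptors, fat body and muscle, so fewer cells carrying a mark and less of the mark per cell cannot be told apart.

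The DNA around fly centromeres is rich in repeats and transposon remnants and is packaged with methylated H3K9 and the protein HP1a, which keeps most of it silent. Many genes nevertheless lie there, many of them with very long introns made of repeats, and several are known to need the heterochromatic surroundings for full expression. H3K4me1, a single methyl group on lysine 4 of histone H3, decorates enhancers and transcribed genes, while H3K27ac, an acetyl group on lysine 27, decorates promoters and enhancers in use.

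No mark of heterochromatin was among the lists, so the label rests on position. Peaks were not thin everywhere beyond the boundaries. The stretch of X between 400 and 500 kb from the boundary held 38 H3K4me1 peaks at day 10, with 14.0 kb of its 100 kb under peaks, against 12.3% of the bases in the rest of X. On 2L the stretch from 100 to 200 kb held 21 peaks and 9.54 kb, against 13.7% in the rest of 2L. These stretches are called pericentromeric here by the rule only. Near the boundary of 3L the last H3K4me1 peak outside it at day 10 had a fold of 3.05 and the first inside it 2.43, and on 3R these values were 3.22 and 3.39. On 2L they were 2.11 and 1.81. On X no peak of the 4 lists lay between 21629780 and 22444799, so the nearest peaks stood far from the boundary on both sides.

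Both marks were far sparser per Mb in the pericentromeric zones than in the rest of the same arms. H3K4me1 had 18.7 peaks per Mb in the zones at day 10 and 21.4 at day 50, against 362 and 340.5 in the rest. H3K27ac had 12.9 at both ages, against 227 and 214. Of the 12.2 Mb in the zones, H3K4me1 peaks took up 0.611% at day 10 and 0.698% at day 50. H3K27ac peaks took up 0.401% and 0.406%. In the rest of the arms these shares were 14.7% and 14.0% for H3K4me1 and 7.75% and 7.51% for H3K27ac. The share was thus 24.1 and 20.1 times higher outside the zones for H3K4me1, and 19.3 and 18.5 times for H3K27ac. These ratios depended on the boundary: they lay between 7.36 and 7.92 over the 4 lists with boundaries 500 kb nearer the euchromatin, and between 27.4 and 37.8 with boundaries 500 kb nearer the centromere. Genes were sparser too, with 12.0 protein-coding genes per Mb in the zones against 114 in the rest. Counted per gene, the difference was smaller. At day 10 there were 1.55 H3K4me1 peaks per gene against 3.16, and 1.08 H3K27ac peaks against 1.98. At day 50 these values were 1.78 against 2.98 and 1.08 against 1.88. Repeat content and the share of sequence to which reads can be placed were not measured here. The part of these and of gene density in the difference was not tested.

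**Figure D1:**
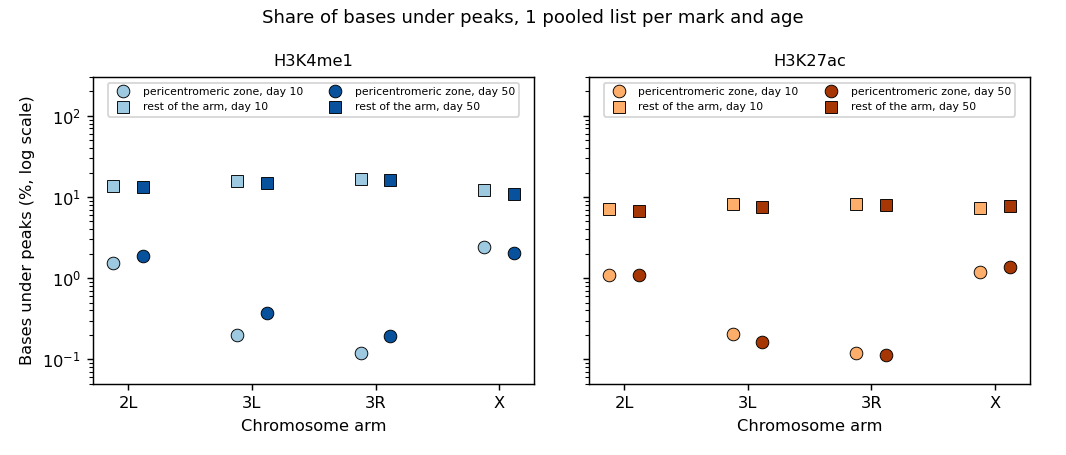
Percent of bases under peaks (log scale) in the pericentromeric zone (circles) and the rest of each arm (squares), for H3K4me1 (left) and H3K27ac (right) at day 10 (light) and day 50 (dark), 1 pooled list per point and no error available. The zones of 3L and 3R lie between 0.113% and 0.373%, those of 2L and X between 1.08% and 2.43%, and the rest of each arm is higher in every list.

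The zones of 2L and X held a larger share of bases under peaks than those of 3L and 3R in every list. At day 10 H3K4me1 covered 2.43% of the zone on X, 1.53% on 2L, 0.202% on 3L and 0.119% on 3R. H3K27ac came in the same order, with 1.20%, 1.08%, 0.202% and 0.118%. The zones of 3L and 3R are also the longest, with 5.01 and 4.20 Mb against 1.42 Mb on 2L and 1.54 Mb on X.

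Peaks stood in clusters, mostly at genes, with long empty stretches between. Some lay outside every protein-coding gene and the 1000 bp beyond its ends. For H3K4me1 these were 20.3% at day 10 and 21.2% at day 50, against 12.6% and 11.2% in the rest of the arms. For H3K27ac they were 10.8% and 8.92%, against 8.41% and 6.88%. Gene bodies took up 44.6% of the zones and 70.5% of the rest. Of 124 bins of 100 kb, 38 held an H3K4me1 peak at day 10 and 45 at day 50, and 35 and 34 held an H3K27ac peak. The 10 fullest bins held 65.6% of the H3K4me1 peaks at day 10 and 63.7% of the H3K27ac peaks. On 3R no H3K4me1 peak of either age lay farther in than Parp1, which encodes a poly(ADP-ribose) polymerase, 613 kb from the boundary, and the remaining 3587 kb were empty. That stretch holds Myo81F, a myosin gene of 1966 kb, and Pzl (Piezo-like) of 709 kb, where the day 50 H3K27ac list alone had 1 peak, of fold 2.50. On X the first 445 kb were empty, including a row of 20 short genes of nearly the same length. On 2L, 3L and X, in contrast with 3R, peaks reached the last protein-coding genes on the centromeric side. On 2L these were Gpb5, a glycoprotein hormone gene, and Tim23, for mitochondrial protein import. On 3L it was l(3)80Fj, and on X it was ATbp.

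**Figure D2:**
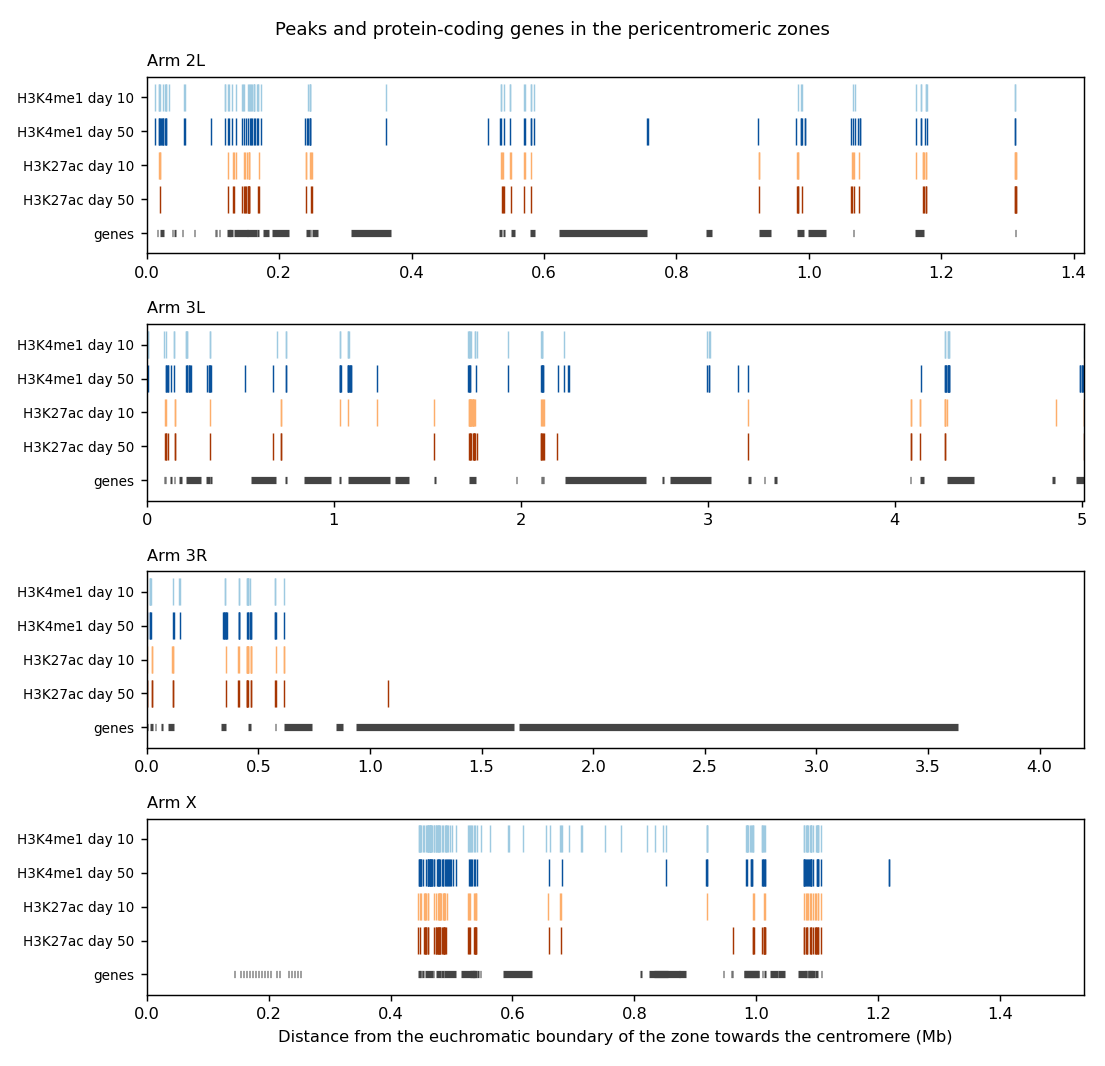
Positions of the 801 pericentromeric peaks (vertical ticks, 1 row per list) and of 146 protein-coding genes (bars) in the zones of 2L, 3L, 3R and X, by distance from the euchromatic boundary towards the centromere in Mb. Ticks cluster mostly at genes, 3R is empty beyond about the first 613 kb except for 1 H3K27ac tick at day 50, and X is empty for its first 445 kb.

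Among the listed peaks, the median fold of the zones was close to that of the rest for H3K4me1 and somewhat higher for H3K27ac. All listed peaks had passed a q threshold, so marking too weak to be called was left out in both parts. These medians therefore describe listed peaks only and cannot show whether the marks were equally strong in both parts. The median fold over the local background, as the authors' caller gave it, was 2.47 in the zones and 2.53 in the rest for H3K4me1 at day 10, and 2.52 and 2.58 at day 50. For H3K27ac it was higher in the zones, 2.75 against 2.50 at day 10 and 2.79 against 2.63 at day 50. At day 10, 43.3% (exact 95% interval 35.4 to 51.4) of the pericentromeric H3K27ac peaks touched a window of 500 bp around a gene end. In the rest 28.5% did. For H3K4me1 the order was the other way, with 17.2% (12.5 to 22.7) in the zones and 21.3% in the rest. At day 50 these shares were 41.4% and 33.0% for H3K27ac, and 14.2% and 23.2% for H3K4me1. Split by position, the median fold of H3K27ac at day 10 was 2.93 in the zones and 2.91 in the rest at gene ends, 2.64 and 2.37 inside genes, and 2.48 and 2.31 elsewhere. At day 50 it was 3.21 and 3.08 at gene ends and 2.63 and 2.46 inside genes. The median width was 233 bp in the zones and 294 bp in the rest for H3K4me1 at day 10, and 242 and 278 bp for H3K27ac. For H3K27ac the arms differed at day 10. Peaks were wider in the zone than in the rest on X (313.5 and 270.0 bp) and 2L (279.5 and 271 bp). They were narrower on 3L and on 3R, where the medians were 199 and 286 bp. At day 50 zone peaks were again wider on 2L, with 324 and 282 bp, but narrower on X, with 239 and 276 bp. The strongest H3K4me1 peak of the zones at day 10 lay inside cta (2L:22989174-22989384, fold 4.11), and at day 50 inside CG40045 (3L:24034359-24034540, fold 4.22). The strongest H3K27ac peaks lay at an end of l(1)G0196 at day 10 (X:22487598-22487834, fold 4.62) and, at day 50, at CG17600 and the ribosomal S6 kinase gene S6kII, which overlap (X:22530008-22530540, fold 5.22).

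Taken over all peaks, the marks met less often in the zones. Of the pericentromeric H3K27ac peaks at day 10, 63 overlapped an H3K4me1 peak of the same age by at least 1 base, 40.1% (32.4 to 48.2); over all peaks of that list 68.2% did, and in the rest of the same arms 67.5% (66.9 to 68.1). At day 50 it was 60 peaks, 38.2% (30.6 to 46.3), against 68.3% of the whole list and 67.5% in the rest. Of the H3K4me1 peaks, 63 at day 10 and 55 at day 50 overlapped H3K27ac, 27.8% (22.0 to 34.1) and 21.2% (16.4 to 26.6), against 40.1% of the whole list at both ages and 40.9% and 41.1% in the rest. The lower overlap of H3K27ac held among peaks at gene ends, with 26.5% in the zones against 54.3% in the rest at day 10, and among peaks inside genes, with 51.5% against 72.9%. For H3K4me1 the split gave another picture: at gene ends 46.2% of its peaks overlapped H3K27ac in the zones and 42.1% in the rest at day 10, and 40.5% and 46.2% at day 50, while inside genes it was 24.1% and 43.3% at day 10. The lower overlap of H3K27ac was seen on 2L, 3L and 3R, where 39.1%, 20.0% and 28.6% of the H3K27ac peaks overlapped H3K4me1 at day 10 against 66.1%, 70.1% and 72.1% in the rest of those arms. X was the exception, with 62.0% (47.2 to 75.3) in the zone and 59.8% in the rest at day 10. At day 50 X had 55.6% (42.5 to 68.1) in the zone and 59.1% in the rest. On 2L, 3L and 3R it was then 34.1%, 23.5% and 15.8%, against 68.1%, 69.4% and 72.1%. For H3K4me1 X was no exception, with 31.1% in the zone and 44.5% in the rest at day 10, and 36.5% and 48.9% at day 50. The sparser H3K4me1 peaks of the zones stand beside the lower overlap of H3K27ac, and their part in it was not tested.

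**Figure D3:**
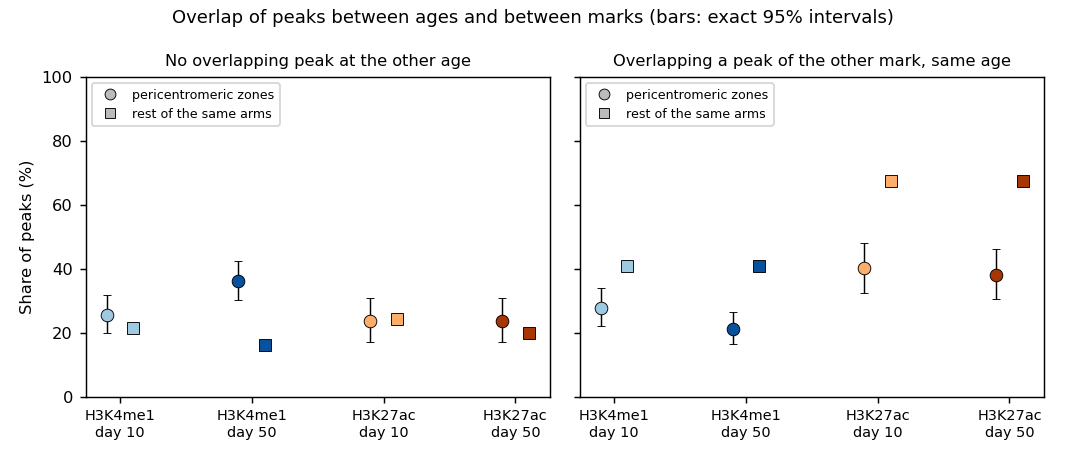
Share of peaks with no overlapping peak of the same mark at the other age (left) and share overlapping a peak of the other mark at the same age (right), in percent, for pericentromeric zones (circles) and the rest of the same arms (squares), with exact 95% intervals for counting error. H3K4me1 at day 50 stands at 36.2% in the zones against 16.3% in the rest on the left, and H3K27ac at 40.1% and 38.2% against 67.5% on the right.

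For age, the pericentromeric H3K4me1 list was longer at day 50 while the list of the rest was shorter. In the zones there were 227 peaks over 74.3 kb at day 10 and 260 over 84.9 kb at day 50, which is 14.3% more bases, whereas the rest of the arms had 4.78% fewer. The zones of the autosomal arms carried this difference. On 3L there were 44 and 77 peaks over 10.1 and 18.7 kb, on 3R 20 and 28 peaks over 5.00 and 8.16 kb, and on 2L 60 and 70 peaks over 21.7 and 26.6 kb. Together these had 45.0% more bases at day 50, against 3.23% fewer in the rest of those arms. X went the other way, with 103 and 85 peaks over 37.4 and 31.5 kb, 16.0% fewer bases, beside 11.2% fewer in the rest of X. The net difference of 10.6 kb was 6.42 kb in the upper 50% of each list, 5.19 and 6.46 kb with boundaries 500 kb nearer the centromere and the euchromatin, and 16.6 kb without X.

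H3K27ac showed no such difference. It had 157 peaks at both ages, over 48.8 and 49.5 kb. On 2L there were 46 and 41 peaks, on 3L 40 and 34, and on 3R 21 and 19. The zones of these arms together had 7.06% fewer bases at day 50, beside 5.29% fewer in the rest of those arms. On X there were 50 and 63 peaks over 18.4 and 21.2 kb, 15.2% more bases, beside 4.37% more in the rest of X. In the zones of 3L, 3R and X the marks therefore differed in opposite directions between the ages. On 3R the H3K27ac difference was small, with 4.97 and 4.745 kb. The rest of X showed the same opposite directions as its zone. The net difference of 0.647 kb for H3K27ac turned to -2.15 kb without X, to -2.23 kb in the upper 50% of each list, and to -0.599 or -1.69 kb with boundaries moved by 500 kb towards the centromere or the euchromatin.

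**Figure D4:**
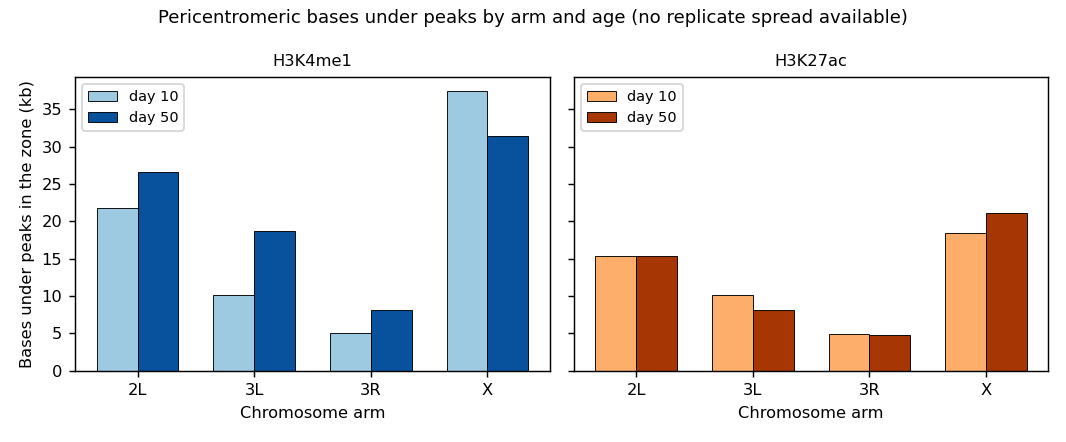
Bases under H3K4me1 peaks (left) and H3K27ac peaks (right) in the pericentromeric zone of each arm, in kb, at day 10 (light bars) and day 50 (dark bars), from 1 pooled list each with no replicate error. H3K4me1 bars are higher at day 50 on 2L, 3L and 3R and lower on X (37.4 and 31.5 kb), while H3K27ac is higher on X (18.4 and 21.2 kb).

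Most pericentromeric peaks were found at both ages. Of the H3K4me1 peaks at day 10, 58 had no overlapping peak at day 50, 25.6%, against 20.6% of the whole list. At day 50, 94 had none at day 10, 36.2%, against 16.8% of the whole list and 16.3% of the rest of the arms. This share was 58.4% on 3L and 57.1% on 3R, 30.0% on 2L and 14.1% on X. For H3K27ac it was 37 peaks or 23.6% at each age, against 24.0% of the whole list at day 10 and 20.0% at day 50. The H3K4me1 peaks seen only at day 50 were weak, with a median fold of 2.26 and a median width of 184 bp, against 2.70 and 286 bp for those found at both ages. In the rest of the arms peaks of day 50 only had a similar median fold of 2.18. Of the 45 such peaks on 3L, 30 lay inside genes, 1 at a gene end and 14 elsewhere. Among peaks with a -log10 q of at least 5, 37.0% of the pericentromeric H3K4me1 peaks at day 50 had no partner of that strength at day 10, against 18.8% in the rest. Set against the whole day 10 list, 72.5% of these pericentromeric peaks had a partner. That share was not computed for the rest, so the 2 parts cannot be compared on it.

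The zones held 146 protein-coding genes, of which 54 had a peak of each list in their region, meaning the gene and 1000 bp beyond each end, 37.0% against 58.4% of all genes. No peak in any list was found for 58, 39.7% against 21.9% of all genes. These 58 include the row of 20 short genes of nearly the same length on X, each counted singly in this and the following shares. H3K27ac marked gene ends in the zones more often than H3K4me1 did. At either age 55 genes had an H3K27ac peak no farther than 500 bp from an end, 37.7% (29.8 to 46.1), against 53.9% of all genes at day 10 and 56.2% at day 50. An H3K4me1 peak did for 35 genes at day 10 and 33 at day 50, 24.0% and 22.6%, against 58.0% and 59.2% of all genes. Ends with H3K27ac and no H3K4me1 numbered 26 of 146 at day 10 and 29 at day 50, against 8.78% and 8.88% of all genes. They made up 47.3% (33.7 to 61.2) and 52.7% (38.8 to 66.3) of the pericentromeric genes with H3K27ac at an end, against 16.6% and 16.4% in the rest of the arms. An end held H3K4me1 at day 10 only for 7 genes and at day 50 only for 5, against 4.07% and 5.23% of all genes, and H3K27ac for 3 and 3, against 1.68% and 4.02%.

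By gene length, the share of genes with a peak differed from the rest to varying degrees. Among genes under 5 kb, 39.5% of 76 pericentromeric genes had an H3K4me1 peak in the region at day 10 against 67.0% in the rest, and 38.2% had an H3K27ac peak against 56.4%. These 76 include the row of 20 short X genes, none of which had a peak in any list. From 5 to 20 kb these shares were 56.1% against 89.0% for H3K4me1 and 68.3% against 76.0% for H3K27ac, and from 20 to 100 kb 73.7% against 96.3% and 52.6% against 85.1%. Among genes of at least 100 kb, 10 in the zones had on average 0.186% of the region under H3K4me1 peaks, against 8.74% for 62 in the rest. Of these 10, CG40470 and Myo81F had no peak in any list.

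Between the ages, 47 pericentromeric genes had a higher share of the region under H3K4me1 at day 50 and 33 a lower one, against 39.5% and 36.7% of all genes, and 65 had no H3K4me1 peak at either age, against 23.6%. The order of higher and lower turned in the upper 50% of each list, with 31 and 35 genes, and for windows of 1000 bp around gene ends, with 28 and 31. By arm, higher and lower genes numbered 15 and 5 of 37 on 2L and 16 and 6 of 36 on 3L. On 3R they were 5 and 3 of 14, and on X 11 and 19 of 59. On 2L, 3L and 3R the higher genes made up 40.5%, 44.4% and 35.7%, against 38.4%, 40.2% and 42.9% in the rest. The lower genes made up 13.5%, 16.7% and 21.4%, against 34.2%, 35.6% and 35.7%. The rest of X leaned the same way as its zone, with 28.1% higher and 46.9% lower. For H3K27ac, 37 were higher and 37 lower, against 47.1% and 18.5% of all genes, and 72 had no peak, against 34.2%. In the upper 50% of each list 20 were higher and 43 lower. X had 19 higher and 8 lower of 59, beside 50.3% and 19.7% in the rest of X. On 3L there were 5 and 14 of 36, beside 45.1% and 18.0% in the rest of 3L. Over all pericentromeric genes the median difference in the share was 0 for both marks, as it was over all genes. The mean was -0.187 percentage points for H3K4me1 and 0.348 for H3K27ac, against 0.707 and 1.79 over all genes.

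Of 35 genes listed as classical heterochromatic genes, 24 lay in the zones and 11 elsewhere, mostly on 2R, which the rule does not include. For H3K4me1, 8 of the 24 were higher at day 50, 9 lower and 7 without a peak, against 39.5%, 36.7% and 23.6% of all genes. For H3K27ac these numbers were 9, 9 and 6, against 47.1%, 18.5% and 34.2%. The genes stnA and stnB share 1 region and were counted separately. Cht10, a chitinase gene listed under its older name Cht3, nvd and spok, which act in ecdysone synthesis, eIF4B, for translation initiation, and Myo81F had no peak in any list. These 5 of 24 stand beside 21.9% of all genes without a peak in any list.

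Among the named genes with roles in translation, protein import and RNA processing, eIF4B had no peak, as given above. RpL15, a protein of the large ribosomal subunit, had 0.837 kb under H3K27ac at day 10 in a gene of 1.19 kb, and 0.673 kb at day 50; H3K4me1 took up 0.422 and 0.348 kb. RpL5, also of the large subunit, had 0.618 and 0.744 kb under H3K27ac, and the mitochondrial ribosomal gene mRpS5 had 0.344 and 0.181 kb with no H3K4me1 peak. Tim23 and Tim17b, components of the import machinery of the inner mitochondrial membrane, had 1.26 and 1.11 kb and 0.520 and 0.348 kb. Spf45, a splicing factor gene, had 0.889 and 1.15 kb. RpL15, RpL5, mRpS5, Tim23, Tim17b and Spf45 had an H3K27ac peak within 500 bp of an end at both ages. Among these, only Tim23 and Spf45 also had an H3K4me1 peak there at both ages. su(f), which encodes a factor of mRNA 3' end cleavage, had peaks of both marks within 500 bp of an end at both ages. Its bases under peaks differed in opposite directions for the marks, with 2.20 and 1.70 kb under H3K4me1 and 1.08 and 1.59 kb under H3K27ac. Both directions turned in the upper 50% of each list, with differences of 0.115 and -0.155 kb.

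Named genes with roles at synapses and cell contacts were mostly chosen for their H3K4me1 difference, so that difference is a description. Snap25, a SNARE protein of vesicle fusion, spans 225 kb of 3L and had 3 H3K4me1 peaks over 0.944 kb at day 10 and 8 over 2.25 kb at day 50, the largest excess at day 50 among pericentromeric genes. Its 2 H3K27ac peaks at day 10, 0.371 kb, had no counterpart at day 50. nAChRalpha4, a subunit of the nicotinic acetylcholine receptor, had 0.839 and 1.62 kb under H3K4me1, alpha-Cat, the alpha-catenin of cell junctions, 0.354 and 0.956 kb, and neither had an H3K27ac peak. On X the pair stnA and stnB, made from 1 shared transcript unit and needed for recycling of synaptic vesicles, differed the other way. Their common region had 10 H3K4me1 peaks over 4.58 kb at day 10 and 6 over 2.37 kb at day 50, the largest excess at day 10, with 1.14 and 1.34 kb under H3K27ac. Among the upper 50% of peaks, ranked by -log10 q, the day 50 minus day 10 difference for H3K4me1 turned to -0.135 kb at Snap25 and -0.038 kb at nAChRalpha4. At stnA and stnB it was -0.508 kb there, smaller than the -0.795 kb of CG12576, so their rank did not hold.

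Among genes of chromatin and of small RNAs, Set1, an H3K4 methyltransferase, had 1.02 and 0.946 kb under H3K4me1 and 0.503 and 0.707 kb under H3K27ac. Parp1 had 0.597 and 0.607 kb and 0.501 and 0.483 kb. vtd, the Rad21 subunit of cohesin, had 0.353 kb under H3K4me1 at day 50 alone, and 0.324 and 0.167 kb under H3K27ac. AGO3, an Argonaute protein of the piRNA pathway, which silences transposons, had a single peak of each mark at day 50 and none at day 10, over 0.165 kb for H3K4me1 and 0.386 kb for H3K27ac. Dbp80, an RNA helicase gene of 143 kb, had 1.05 and 1.56 kb under H3K4me1 and an H3K27ac peak of 0.147 kb at day 10 alone.

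Among genes of signalling and development, scro, a homeodomain factor gene of the NK-2 class, had the largest H3K27ac excess at day 10, with 12 peaks over 2.60 kb and 9 over 1.82 kb, and 0.867 and 0.383 kb under H3K4me1. tio (tiptop), a zinc finger factor gene close to the boundary of 2L, had 0.776 and 0.232 kb under H3K27ac and 2.12 and 2.39 kb under H3K4me1. lt (light), the fly Vps41 of vesicle traffic to lysosomes and pigment granules, had 0.383 and 0.210 kb under H3K27ac and a single H3K4me1 peak of 0.159 kb at day 50. cta, the G protein alpha subunit that acts downstream of the secreted ligand fog in gastrulation, had 1.11 and 1.23 kb under H3K27ac and 0.576 and 0.868 kb under H3K4me1. fog itself had 0.718 and 0.287 kb under H3K4me1 and no H3K27ac peak.

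Of the gene regions with the most covered bases, those not yet described lay on 2L and X. CG42748 on 2L had 5.54 and 5.57 kb under H3K4me1 and 3.60 and 4.03 kb under H3K27ac, where the upper 50% of the lists gave a difference of -0.446 kb. On X, CG17600 had 5.42 and 4.80 kb under H3K4me1 and 2.40 and 2.90 kb under H3K27ac, the ubiquitin protease gene Usp2 4.81 and 4.79 kb and 1.73 and 2.04 kb, and S6kII 3.17 and 2.80 kb and 0.743 and 0.976 kb. CG12576 had 2.65 and 2.17 kb under H3K4me1 and 2.64 and 3.48 kb under H3K27ac, the largest H3K27ac excess at day 50. Cp110, for a centriole protein, had 1.89 and 2.02 kb and 2.20 and 2.87 kb. For CG17600, S6kII and CG12576, as for su(f), the H3K4me1 value was lower and the H3K27ac value higher at day 50. In the upper 50% of each list the differences at CG17600 shrank to -0.095 and 0.006 kb. Cda4, named for chitin deacetylation, had 3 H3K4me1 peaks over 0.548 kb at day 10 and none at day 50, all with a -log10 q under 5, so the stricter lists gave 0 at both ages. Other named genes with larger differences were l(3)80Fj on 3L, with 0.306 and 1.25 kb under H3K4me1, CG41099 on 3R, with 0.361 and 1.16 kb (a difference of -0.107 kb in the upper 50% of the lists), CG12567 on 2L, with 1.00 and 0.482 kb under H3K27ac, and Alg-2 on 3R, with 0.299 and 0.775 kb under H3K27ac.

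**Figure D5:**
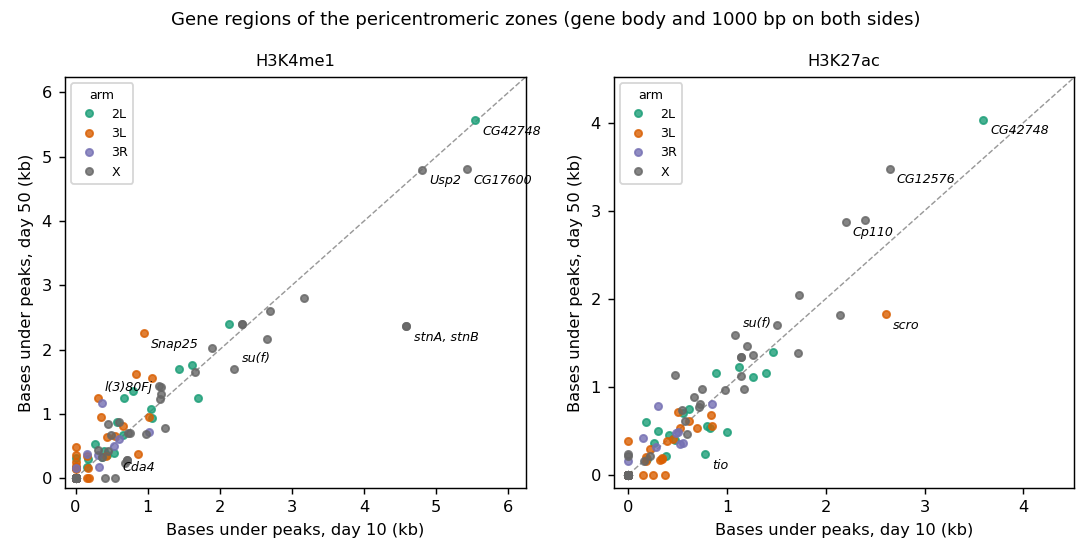
Bases under peaks in the region of each of 146 pericentromeric genes, in kb, at day 10 (x axis) and day 50 (y axis), for H3K4me1 (left) and H3K27ac (right), coloured by arm, with the line of equal values dashed. For H3K4me1 stnA and stnB lie below the line (4.58 and 2.37 kb) and Snap25 above it (0.944 and 2.25 kb), and for H3K27ac scro lies below it and CG12576 above it.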

How the data were processed

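Peaks of H3K4me1 and H3K27ac in male fly heads were taken from 4 lists, 1 for each mark and age. The authors joined both ChIP replicates before calling, per the peak names in the files. Tools listed without role or order in the submitters' processing notes are MACS2 2.1.1, STAR 2.5.3a, deepTools, Trim Galore and FastQC, with BDGP6 as build; further settings are unknown here. The deposited lists give for each peak a fold (ratio over the local background), a -log10 p, a -log10 q (at least 1.30), a score derived from q and a summit offset. Only fold and -log10 q were used, to describe or filter peaks within a list. A q threshold admits more peaks in deeper libraries, which can move peak numbers between ages.

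Starts were made 1-based. Arms end at the last gene or peak. Bases under overlapping peaks were counted once, and an overlap needed 1 base. Genes were placed with RefSeq's table for Release 6, which holds 13946 protein-coding genes on the main sequences and neither strand nor exons, so both ends of a gene were used. Exact (Clopper-Pearson) 95% intervals were computed with scipy 1.17.1 in Python 3.11.15, and the interval functions were tested on simulated data. Alternatives were stricter q, boundaries moved by 500 kb, other overlaps, gene windows and comparison stretches. Named genes were classical heterochromatic genes from a list, the 6 with the most bases per mark, the 5 with the largest excess per mark and age without overlapping regions, genes at the 5 strongest peaks per list, and the innermost peaks. The members, lists and rules were chosen with earlier results of these data known.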

Additional observations from a re-analysis of the deposited data

Results flagged for a closer look

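Peaks outside the chromosome arms, on scaffolds that were not part of any comparison, were more than the 3 that a count of 0 allows. There were 8 for H3K4me1 at day 10 and 14 at day 50, and 5 and 7 for H3K27ac. Their median folds were 2.17, 2.64, 2.73 and 2.23 in that order. Of the H3K4me1 peaks, 1 at day 10 and 8 at day 50 lay on a single scaffold mapped to the Y, where H3K27ac had 0 at both ages. Read depth behind these counts is unknown.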

How the results depend on the processing

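No paired analysis was possible because both replicates of a mark and age were joined before peak calling, and for the same reason no replicate could be left out. Of 164 alternative values, 95 stayed near the reported one. For shares, ratios and median folds this meant within the counting interval, and for numbers of genes and covered kb within 1.5 times. The zones stayed sparser than the rest under every alternative run, but the size depended on the boundary. In the order H3K4me1 day 10, day 50, H3K27ac day 10, day 50, the ratio of the share under peaks, rest over zone, was 37.8, 31.8, 27.7 and 27.4 with boundaries 500 kb nearer the centromere and 7.92, 7.36, 7.65 and 7.49 with boundaries 500 kb nearer the euchromatin. The ratio of peak densities was then 29.4, 24.3, 24.6 and 23.5, and 7.99, 7.31, 8.45 and 8.83. With the neighbouring 2 Mb as comparison it was 14.2 for H3K27ac at day 50. In the upper 50% of each list the ratio of shares was 28.1 and 23.1 for H3K4me1, and the median fold, zone minus rest, -0.13 for H3K4me1 at day 10 and 0.12 and 0.31 for H3K27ac.

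The share of zone peaks found at the other age was 63.1% and 53.3% for H3K4me1 in the upper 50%, against 73.9% and 79.3% in the rest. For H3K27ac at day 50 it was 83.3% against 78.0%, where the lists as reported had 76.4% against 80.1%. The shares given next, for the other age and the other mark, were computed for the zones alone, without the rest. With the boundary nearer the euchromatin the share found at the other age was 80.4% and 77.6% for H3K4me1. Peaks of -log10 q of at least 5 against the whole other list gave 83.3%, 72.5%, 83.3% and 84.3%. Overlap with the other mark was 34.2%, 30.8%, 59.1% and 59.2% with the boundary nearer the euchromatin. It was 10.0% for H3K4me1 at day 50 and 24.2% and 15.4% for H3K27ac in the upper 50%, 30.0% and 27.3% for H3K27ac at -log10 q of at least 5, and 16.2% for H3K4me1 at day 50 when 50% of the peak had to overlap. Day 50 minus day 10 in kb for H3K4me1 was 6.42 in the upper 50%, 5.19 and 6.46 with boundaries nearer the centromere and the euchromatin, and 16.6 without X. For H3K27ac it was -2.23, -0.599, -1.69 and -2.15 there, 1.46 where both ages kept as many peaks, and 1.51 for peaks at or above a -log10 q of 5.

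Gene ends with H3K4me1 were 35.7% and 36.0% with the boundary nearer the euchromatin, 34.9% and 37.0% with a window of 1000 bp and 15.8% at day 50 in the upper 50%, where H3K27ac had 28.8% and 28.1%. Genes higher at day 50 for H3K4me1 numbered 31 in the upper 50%, beside 35 lower, and 28 around gene ends, beside 31 lower, against 47 and 33 as reported. With boundaries nearer the centromere 26 were higher and 21 lower, and nearer the euchromatin 112 and 76. For H3K27ac 20 were higher and 43 lower in the upper 50%, and the boundaries gave 22 and 23, and 84 and 79. Of 40 named gene values 8 stayed the same, 26 moved and 6 reversed, the last all in the upper 50%: for H3K4me1 su(f) 0.115, Snap25 -0.135, CG41099 -0.107 and nAChRalpha4 -0.038 kb, and for H3K27ac su(f) -0.155 and CG42748 -0.446 kb. The alternatives for bases by age, equal peak numbers, the whole other list and single genes were chosen after seeing the data. The cause of these shifts was not tested, and the unknown depth limits what absence of a peak means.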

Other observations

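Non-coding genes of the zones carried peaks as well, in numbers that were described after their values were seen. Of 45 long non-coding RNA genes, 9 had an H3K4me1 peak in the gene body at day 10 and 8 at day 50, 20.0% and 17.8% against 37.0% and 35.2% of all such genes. An H3K27ac peak was found for 9 at each age, 20.0% against 22.3% and 21.2%. lncRNA:CR44997 on X had 2.15 kb under H3K4me1 at day 10 and 0.740 kb at day 50, and 0.706 and 0.303 kb under H3K27ac. lncRNA:CR46268 on 2L, which overlaps CG17490, had 0.549 and 1.00 kb under H3K4me1. Of 22 pseudogenes, 2 had an H3K4me1 peak at each age, 9.09% against 13.6% and 13.3% of all pseudogenes.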
